A study of Solanum lycopersicum and Solanum pimpinellifolium with 9 samples.

Results

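The root of the tomato cultivar MoneyMaker (Solanum lycopersicum) was compared with the 6 other MoneyMaker tissues of the series, gene by gene. For each gene the RPKM value in root was set against the highest value among stem, leaf, flower, mature green fruit, breaker fruit and ripe fruit. A gene entered when root or that highest tissue reached 25 RPKM, which held for 12519 of the 34727 gene IDs. The difference was taken on log2(RPKM + 5), and a gene is called root-predominant below when root had at least 25 RPKM and stood 2 log2 units (4-fold) or more above every other MoneyMaker tissue. The root material was grown root from below ground, the stem came from just under the shoot apex, the leaf was fully expanded and 2 to 3 weeks old, and the flower was taken at anthesis without sepals. Fruit was fully expanded and green, turning, or red. The 2 libraries of Solanum pimpinellifolium LA0722, a wild red-fruited relative, took no part in the choice of genes and served as an outside look: fully expanded leaf of 2 to 4 weeks and ripe fruit. All plants grew in soil in a greenhouse with 16 h of light and 8 h of dark, and how many plants went into a library is not stated in the labels.

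Roots take up water and mineral nutrients, anchor the shoot and live in contact with soil microbes. They grow without light and keep the photosynthetic machinery of green organs largely switched off, while their vascular strand continues into the stem. The comparison asks which transcripts set this organ apart from the rest of the plant. The deposited table gives gene IDs of the Solyc form, and neither it nor the reference table pairs them with names or products. Roles are therefore not given, and the root label could not be set against marker genes. By the convention of tomato gene IDs the number before the letter g is the chromosome, and IDs ascend along it.

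Each tissue was represented by 1 library, so the precision given below is that of counting, and how much plants of 1 tissue differ is unknown. The totals that the values imply came to 337998 reads in root, and to between 213742 in flower and 380306 in leaf for the other MoneyMaker tissues. In LA0722 they were 300892 in leaf and 211201 in ripe fruit. On a coding length of 1 kb, 1 read was worth 2.96 RPKM in root, 2.97 RPKM in stem, 2.63 RPKM in leaf and 4.68 RPKM in flower. A value of 0 in flower or breaker fruit is therefore a weaker statement than a 0 in leaf. Reads recovered gene by gene summed to 98.5% of the implied total in root and 96.2% in flower, against 99.6% to 99.9% in the other 5 MoneyMaker tissues. A gene with a value in few libraries fits several pairs of reads and length, and the smallest pair was kept, so both can be understated by a whole factor. Of the root-predominant genes, 259 had a value in root alone among the 9 libraries, and their reads and lengths are lower limits.

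Root drew on many genes and stood out in a limited number of them. In 7150 genes it reached 25 RPKM, and 1080 of these (15.1%) reached that level in no other MoneyMaker tissue. The same share was 23.8% in flower and between 5.41% and 8.64% in the other 5 tissues. Among the 12519 genes compared, root alone had the highest value in 2554 and the lowest in 413. It had rank 2 among the 7 tissues in 2640 genes and rank 6 in 1043, with tied values given the better rank. This lean to the upper ranks was not particular to root. Mature green fruit alone was highest in 1998 genes and lowest in 217, stem in 1741 and 270. For ripe fruit the counts were 2150 and 732, and for breaker fruit 1557 and 482. Leaf, with 1223 and 1510, and flower, with 1294 and 4333, leaned the other way. All these counts are from the deposited values. The lead of root was mostly small. Root led by at least 1 log2 unit in 1044 genes, by 2 in 563, by 4 in 153 and by 6 in 37. The 563 root-predominant genes were 4.50% of those compared, while 3690 genes (29.5%) were at least 4-fold lower in root than in the highest other tissue. The other tissues passed the same rule in 6.19% (flower), 2.44% (leaf), 0.959% (mature green fruit), 0.799% (stem), 0.735% (ripe fruit) and 0.727% (breaker fruit) of the genes compared. This order turned with scaling for root and leaf: with median-ratio size factors there were 427 genes for root, 586 for leaf and 1306 for flower, and upper-quartile scaling gave 388, 460 and 1216, where the deposited values gave 563, 305 and 775. The gene nearest inside the rule had a difference of 2.011 and the one nearest outside it 1.990. A further 146 genes had a difference of 2 or more but stayed under 25 RPKM in root, the highest of them at 24.82 RPKM.

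**Figure D1:**
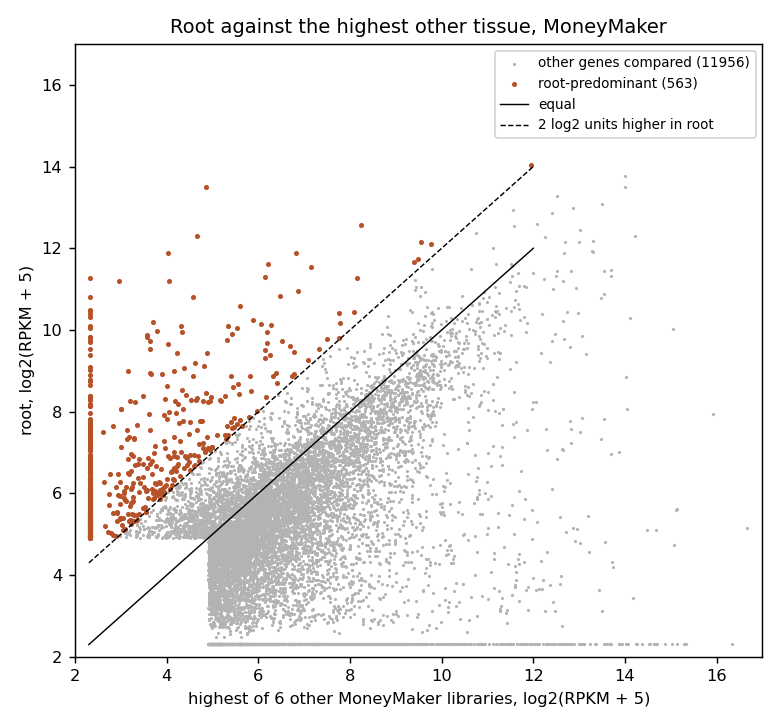
Root on the vertical axis against the highest of the 6 other MoneyMaker libraries on the horizontal axis, both as log2(RPKM + 5), for the 12519 genes compared. Each point is a gene; the 563 root-predominant genes lie on or above the dashed line of 2 log2 units, and the column of points at the left edge holds the 283 of them listed at 0 in all 6 other tissues.

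The root-predominant genes ranged from 25.03 to 16765 RPKM in root, with a median of 80.1 and quartiles of 41.7 and 217 RPKM. They held 14.3% of the summed RPKM of root, and the 38 genes at 1000 RPKM or more held 57.1% of what the 563 genes had together. A share of this size was not particular to root. Flower-predominant genes held 71.9% of the summed RPKM of flower, and leaf-predominant genes 44.4% of that of leaf. For each remaining tissue the share was lower than for root, from 3.39% (stem) to 5.68% (ripe fruit). By level, 319 of the root-predominant genes stood between 25 and 100 RPKM in root, 206 between 100 and 1000 RPKM, and 38 at 1000 RPKM or more. Because of the pseudocount the rule asks for a 10-fold ratio of RPKM at 25 RPKM and 4.06-fold at 1000 RPKM, so shares at these levels were not compared. Inferred coding lengths had a median of 591 nt against 852 nt over all genes compared, and 27.2% were under 300 nt against 12.6%. Lengths of genes with a value in root alone are lower limits. Among genes listed in at least 2 libraries, which leaves 304 of the set, the medians were 721 and 882 nt and the shares under 300 nt 12.8% and 10.3%. Without genes of inferred length under 300 nt the share of root RPKM was 9.32% from 410 genes, with the same limit. By recovered reads the 563 genes took 34702 of 332822 reads in root, or 10.4%, with an exact 95% interval of 10.3% to 10.5% for counting error. The genes were chosen as high in this same library, which the interval does not allow for. Of the implied total the set held 10.3% if none of the 5176 root reads that were not recovered belonged to it, and 11.8% if all did.

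Against each other tissue taken singly, root stood nearest to stem. Of 8810 genes compared with stem, 1132 (12.8%) were higher in root by the rule of 2 log2 units and 755 (8.57%) lower. Against mature green fruit the counts were 1732 (18.5%) higher and 989 (10.6%) lower, against breaker fruit 2108 (23.3%) and 1051 (11.6%), and against ripe fruit 2242 (25.3%) and 979 (11.0%). Leaf and flower lay farther off on the deposited values. Against leaf 2386 genes (27.8%) were higher in root and 1035 (12.1%) lower, and against flower 4128 (48.8%) and 1124 (13.3%). These 6 comparisons share the root library. With upper-quartile scaling leaf, at 1317 genes higher in root and 1450 lower, was about level with ripe fruit, at 1599 and 1193. With median-ratio size factors leaf stayed farther off, at 1328 and 1658 against 1848 and 849 for ripe fruit. The excess of genes higher in root rested on the scaling for leaf and flower. As deposited, 69.7% of the genes past the rule against leaf and 78.6% of those against flower were higher in root. With median-ratio size factors, which moved root by -0.95 log2 units against leaf and -1.64 against flower, the shares were 44.5% and 49.5%. Upper-quartile scaling, with shifts of -0.82 and -1.61, gave 47.6% and 49%. Upper-quartile scaling also took breaker fruit from 66.7% to 55.4% and ripe fruit from 69.6% to 57.3%. With median-ratio size factors these 2 tissues stayed at 63.4% and 68.5%. Mature green fruit had 63.7% as deposited and 62.1% to 69% under the 3 other scalings. Against stem the share was 60% as deposited and 54.1% to 59.7% under the 3 other scalings.

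The clearest root genes were abundant in root and close to absent elsewhere. Solyc03g020070, on chromosome 3, stood at 2478 RPKM in root (201 reads) and was listed at 0 in the 6 other MoneyMaker tissues and in both LA0722 libraries. That is at least 42.4-fold above 58.5 RPKM, the worth of 3 reads in flower, the shallowest of the MoneyMaker libraries. Solyc04g007760 was more abundant still, at 11579 RPKM in root (1726 reads), 20.2 RPKM in stem (3 reads) and 23.9 RPKM in leaf (4 reads), and was listed at 0 in flower, all 3 fruit stages and both LA0722 libraries. Root was 486-fold above leaf, its next highest tissue, with an exact 95% interval of 189 to 1784. Gene and tissue were picked on these same reads. This interval and those of the genes named below do not allow for that choice. Root alone was high for both genes. In the opposite direction the largest gaps were to flower. Solyc01g066370 was listed at 0 in root and at 82120 RPKM in flower, at least 3969-fold above the worth of 3 reads in root, and Solyc06g084180 at 0 and 41274 RPKM, at least 1018-fold above it. Outside flower these last genes had 65.2 and 21.3 RPKM in breaker fruit and were at 0 in the other MoneyMaker tissues.

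**Figure D2:**
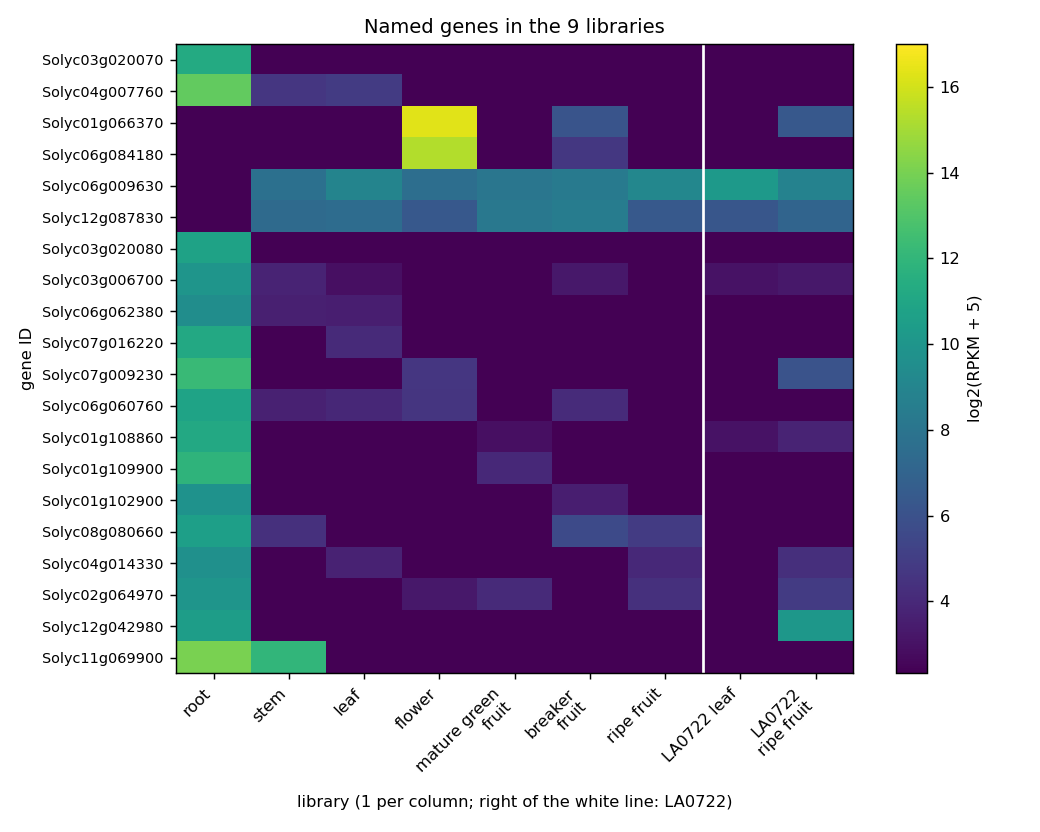
Level of each named gene (rows) in each of the 9 libraries (columns), coloured by log2(RPKM + 5), where the darkest colour is a listed value of 0. Most rows are bright in root and dark elsewhere, apart from the genes high in flower, the genes lowest in root, Solyc12g042980 with 1106 RPKM in LA0722 ripe fruit and Solyc11g069900 with 3973 RPKM in stem.

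Sorting the root-predominant genes by their next highest tissue gave 283 genes (50.3%) listed at 0 in all 6 other tissues, 111 (19.7%) with stem next, 57 (10.1%) with leaf, 41 (7.28%) with mature green fruit, 28 (4.97%) with flower, 23 (4.09%) with ripe fruit and 20 (3.55%) with breaker fruit. The genes at 0 elsewhere had the lowest median in root, 52.2 RPKM. Their median of 7 reads is a lower limit for the reason given above. The rule itself leads toward this, since it asks for a 10-fold ratio at 25 RPKM in root. There a single read in another tissue can keep a gene out. The size and low level of the class at 0 are thus in part set by the rule. Medians of the other classes lay between 114 and 170 RPKM in root and between 31 and 41.5 reads. The stem class, at a median of 159 RPKM in root and 13.4 RPKM in stem, held 39.8% of the summed root RPKM of the set, and the class at 0 elsewhere 20.8%.

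**Figure D3:**
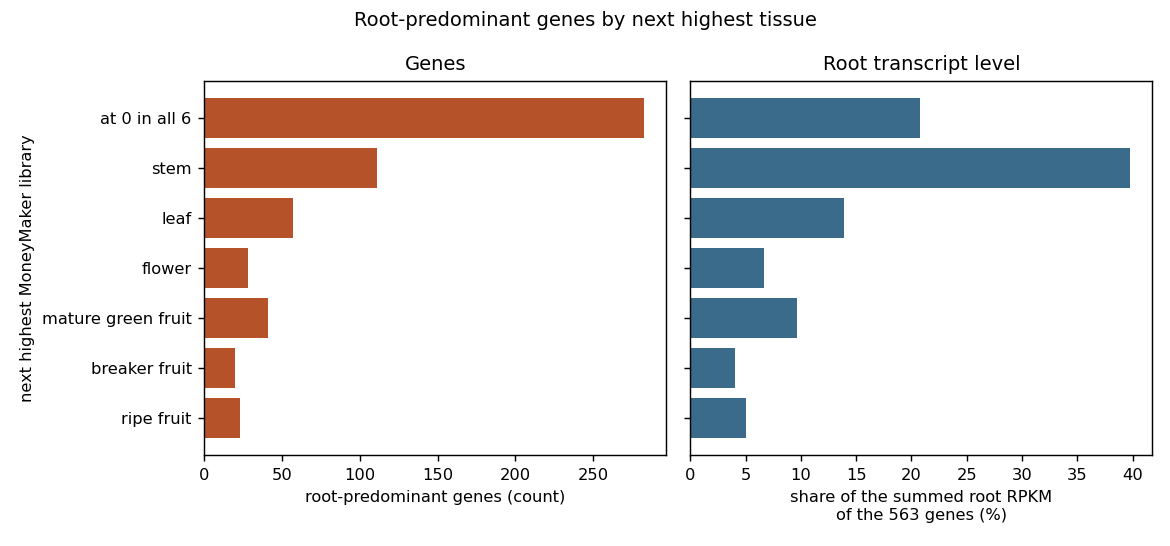
Root-predominant genes grouped by the MoneyMaker tissue with the next highest value, as number of genes (left) and as percent of the summed root RPKM of the 563 genes (right). Genes at 0 in all 6 other tissues are the most numerous with 283, while the 111 genes with stem next hold the most transcript with 39.8%.

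Many of the zeros were within reach of the counting error. Of the 283 genes at 0 in the 6 other tissues, 78 (27.6%) stood at least 4-fold above the worth of 3 reads in every one of those libraries. The worth of 3 reads is highest at the smallest length, so 78 is itself a lower limit. For the remaining ones a level within 4-fold of root was not excluded by depth in at least 1 tissue. Over the whole set 283 of 563 genes (50.3%) passed this stricter reading, which was chosen after seeing the data, and they held 13% of root RPKM. In root itself 171 genes had fewer than 10 recovered reads, an upper figure, since 145 of them had a value in root alone. Solyc03g020080, the immediate neighbour of Solyc03g020070 in ID order, was the second leading gene of this class. It had 1781 RPKM in root (289 reads) and was listed at 0 in the 8 other libraries, at least 60.9-fold above 3 reads in flower.

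Among genes with stem next, Solyc03g006700 had 998 RPKM in root (339 reads), 8.86 RPKM in stem, 4.64 RPKM in breaker fruit and 2.62 RPKM in leaf. Root was 113-fold above stem, with an interval of 38.2 to 549. Solyc06g062380 had 742 RPKM in root, 7.41 RPKM in stem and 6.57 RPKM in leaf, and was 100-fold above stem (27.4 to 833). Both were otherwise at 0 in MoneyMaker. The most abundant gene of the whole root library, Solyc11g069900, also belonged here and is named after its values were seen. It stood at 16765 RPKM in root (986 reads) and 3973 RPKM in stem (233 reads), and was listed at 0 in the 7 other libraries. Its lead over stem was 4.22-fold with an interval of 3.66 to 4.89, so counting error alone leaves it on either side of the 4-fold rule. This gene held 22% of the root RPKM of the stem class and 8.78% of that of the whole set. Its inferred coding length was 174 nt.

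Leaf was next for Solyc07g016220, at 2362 RPKM in root (182 reads) and 11.5 RPKM in leaf from 1 read, a ratio of 205 with an interval of 36.3 to 8132. It was listed at 0 in every other library. For the flower class, Solyc07g009230 had 5008 RPKM in root (391 reads), 20.2 RPKM in flower from 1 read and 61.5 RPKM in LA0722 ripe fruit from 3 reads, a ratio to flower of 247 (44.1 to 9791). Solyc06g060760 had 1796 RPKM in root (457 reads), 18.6 RPKM in flower, 12.4 RPKM in breaker fruit, 10.5 RPKM in leaf and 7.88 RPKM in stem, and was 96.3-fold above flower (32.8 to 469). Traces of the last gene were thus spread over 4 tissues.

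The remaining classes had a fruit stage next. With mature green fruit next, Solyc01g108860 stood at 2334 RPKM in root (833 reads) and 2.73 RPKM in mature green fruit from 1 read, a ratio of 855 with an interval of 153 to 33813. In LA0722 it had 3.15 RPKM in leaf and 8.97 RPKM in ripe fruit. Solyc01g109900 stood at 3806 RPKM in root and 11.3 RPKM in mature green fruit, also 1 read, a ratio of 337 (60 to 13338). With breaker fruit next, Solyc01g102900 had 904 RPKM in root and 6.78 RPKM in breaker fruit (ratio 133, interval 23.7 to 5291). Solyc08g080660 had 1528 RPKM in root, 43.3 RPKM in breaker fruit, 24.6 RPKM in ripe fruit and 15.8 RPKM in stem, and was 35.3-fold above breaker fruit (17 to 88.3). Those fruit values came from 7 reads in breaker and 5 in ripe fruit. With ripe fruit next, Solyc04g014330 had 805 RPKM in root, 11.3 RPKM in ripe fruit and 8.04 RPKM in leaf, a ratio to ripe fruit of 71.2 (12.5 to 2844). Solyc02g064970 had 989 RPKM in root, 15.1 RPKM in ripe fruit, 11.8 RPKM in mature green fruit and 4.77 RPKM in flower, a ratio of 65.6 (25.4 to 242).

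Stem was the tissue that most limited the set. With stem left out of the comparison the number of root-predominant genes was 870 in place of 563, and leaving out any other single tissue gave 586 to 611. The 307 genes added had a median of 82.2 RPKM in root and 51.7 RPKM in stem, and 79 of them were higher in stem than in root. Genes at 25 RPKM or more in both root and 1 other tissue, and 4-fold above the remaining 5 there, numbered 164 with stem. They numbered 18 with flower, 16 with mature green fruit, 15 with leaf, 9 with breaker fruit and 8 with ripe fruit. The genes at 25 RPKM in root and the other tissue, from which these came, numbered 4949 for stem and 2166 for flower. There were 4608 for mature green fruit, 3337 for leaf, 4117 for breaker fruit and 4090 for ripe fruit. All are on the deposited values. Of the 164 genes shared with stem, 85 were higher in root, and the median difference of root minus stem was 0.06 log2 units.

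Genes low in root were numerous against the highest tissue and few against all tissues. Of the 3690 genes at least 4-fold lower in root than in the highest other tissue, flower was that tissue for 983, leaf for 821, ripe fruit for 569, breaker fruit for 554, mature green fruit for 454 and stem for 309. In root 1809 of them (49%) were listed at 0 and 539 reached 25 RPKM. By contrast, 1396 genes reached 25 RPKM in each of the 6 other tissues, and 11 of these (0.788%) were at least 4-fold lower in root than in the lowest of them. Of those 11 genes, 5 were listed at 0 in root, 5 had 1 read and 1 had 3 reads. Flower held the lowest value among the other tissues for 6 of the 11, and leaf the highest for 6. The same count of genes lowest in a tissue was 385 for flower, 47 for leaf, 15 for ripe fruit, 9 for stem, 8 for breaker fruit and 1 for mature green fruit. How many genes reached 25 RPKM in all the remaining tissues was counted for root alone. The counts for the other tissues, here and under the scalings below, are therefore not shares and do not rank the tissues. The number for root rose to 60 without flower and to 21 without stem or without ripe fruit, and was 30 under upper-quartile scaling and 28 when median-ratio size factors were applied. Under the same scalings flower had 200 and 190 such genes, leaf 40 and 31, and ripe fruit 25 and 32.

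The gene with the largest gap of this kind was Solyc06g009630, on chromosome 6. It was listed at 0 in root, and had 209 RPKM in stem, 479 RPKM in leaf, 195 RPKM in flower, 263 RPKM in mature green fruit, 316 RPKM in breaker fruit and 558 RPKM in ripe fruit. LA0722 had 1186 RPKM in leaf and 456 RPKM in ripe fruit. The lowest of these tissues, flower, was at least 8.43-fold above the worth of 3 reads in root. Solyc12g087830 was likewise listed at 0 in root, with 164 RPKM in stem, 176 RPKM in leaf, 78.4 RPKM in flower, 290 RPKM in mature green fruit, 359 RPKM in breaker fruit and 80.5 RPKM in ripe fruit, and with 72.4 and 127 RPKM in LA0722 leaf and ripe fruit. Flower was at least 5.27-fold above the root floor. Root was the outlying tissue for both genes, and no library outside root was at 0.

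In the wild relative, for which no root library was analysed here, most of these genes were not seen. Of the 563 root-predominant genes 431 (76.6%) were listed at 0 in both LA0722 tissues, against 19.1% of all genes compared. Among genes predominant in another tissue this share was 60% for stem, 52.5% for flower and 47.5% for mature green fruit. It was 39.1% for ripe fruit, 38.5% for breaker fruit and 20.7% for leaf. At 25 RPKM or more there were 31 (5.51%) in leaf and 20 (3.55%) in ripe fruit of LA0722, 47 (8.35%) in either, where all genes compared had 54.1%. The share in either was 13.8% of flower-predominant, 18% of stem-predominant and 64.6% of leaf-predominant genes. For genes predominant in mature green, breaker and ripe fruit it was 31.7%, 44% and 48.9%. The rule required root-predominant genes to be low in MoneyMaker leaf and ripe fruit, the same organs, so this is not a separate sign that they belong to root. By reads the set took 0.291% of LA0722 leaf (0.272% to 0.311%) and 0.155% of LA0722 ripe fruit (0.138% to 0.172%). In the MoneyMaker libraries it took 0.507% of stem, 0.223% of leaf, 0.135% of mature green fruit, 0.129% of breaker fruit, 0.0929% of ripe fruit and 0.0847% of flower.

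**Figure D4:**
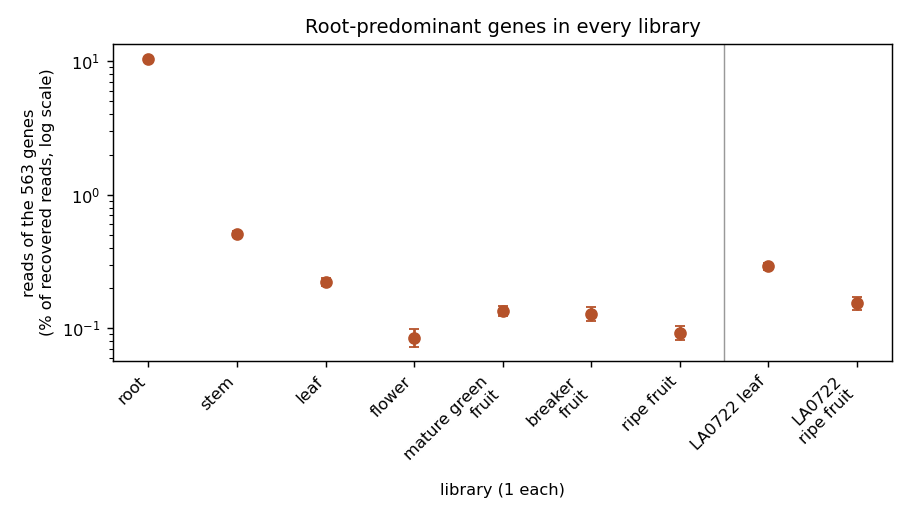
Reads of the 563 root-predominant genes as percent of all recovered reads in each library, on a log axis, with exact 95% intervals of counting error. Root stands at 10.4%, stem at 0.507% and the other libraries between 0.0847% and 0.291%; the 7 MoneyMaker libraries chose the genes and the 2 LA0722 libraries did not.

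Some root-predominant genes did reach the level of root in the wild relative. With the LA0722 libraries included, 520 of 563 genes (92.4%) kept a lead of 2 log2 units. In 9 genes an LA0722 library equalled or exceeded MoneyMaker root, leaf in 7 and ripe fruit in 2, with 25.9 to 218 RPKM in root. In 4 of the 9 this rested on 1 to 8 recovered reads in root and 1 to 12 in LA0722, too few to tell which was higher. For the others no interval was computed, and not all were far apart. Solyc09g097960, picked after its values were seen, had 110.8 RPKM in root (39 reads) and 131.9 RPKM in LA0722 ripe fruit (29 reads). Solyc02g084850, named after its values were seen, had 150.6 RPKM in root, 14.7 RPKM in mature green fruit and 0 in the 5 other MoneyMaker tissues. It reached 1057 RPKM in LA0722 leaf (125 reads), the highest LA0722 value of the 9, and 24.1 RPKM in LA0722 ripe fruit. Of the 283 genes at 0 in the 6 other MoneyMaker tissues, 8 reached 25 RPKM in an LA0722 library and 259 were at 0 in both. Solyc12g042980 was the highest of the 8 and is also named after its values were seen. It had 1432 RPKM in root (228 reads) and 1106 RPKM in LA0722 ripe fruit (110 reads), and was listed at 0 in LA0722 leaf and in the 6 other MoneyMaker tissues, ripe fruit among them. Species, plant and library differ together here and cannot be told apart.

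Root-predominant genes often sat side by side. Of the 552 with a chromosome in their ID, 123 (22.3%) had an immediate neighbour in ID order that was root-predominant too. The exact interval was 18.9% to 26%. It takes genes as independent, whereas neighbours count for each other, so it is too narrow. Among the other genes compared, 3.13% had a root-predominant neighbour. Flower, with more predominant genes, had 14.2% against 4.95%, and leaf 7.02% against 1.97%. Mature green fruit had 8.4% (10 genes) against 0.79%, and stem 6% (6 genes) against 0.643%. Ripe fruit had 5.49% (5 genes) against 0.52%, and breaker fruit 2.2% (2 genes) against 0.463%. A larger set offers more possible neighbours, so these shares do not rank tissues whose sets differ in size. The 123 genes formed 57 runs, of which 50 were pairs, 6 held 3 genes and 1 held 5. The share was 15.9% without genes of inferred length under 300 nt and 17.9% for genes with at least 10 reads in root. Under the first of these limits flower had 10.8%.

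**Figure D5:**
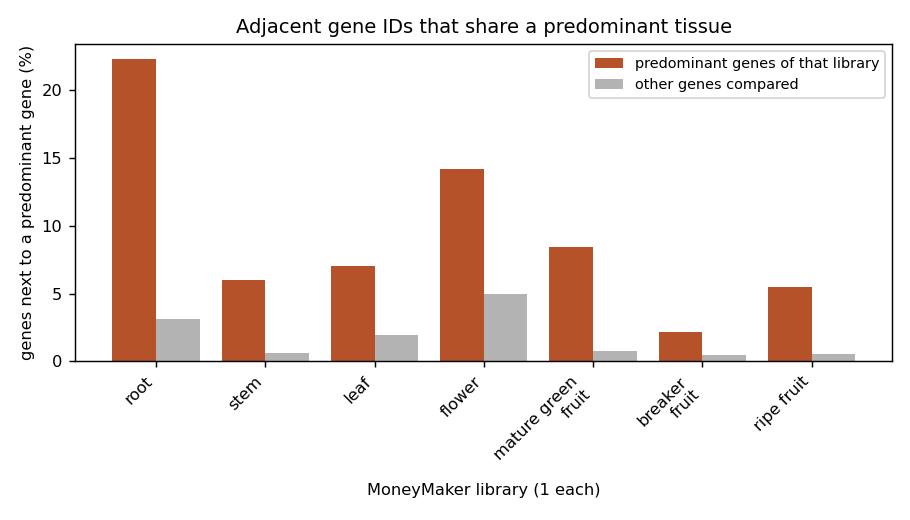
Percent of genes whose immediate neighbour in ID order is predominant in the same MoneyMaker tissue, for the predominant genes of that tissue and for the other genes compared. Root has 22.3% against 3.13% and flower 14.2% against 4.95%. The other 5 tissues have 8.4% or less among their predominant genes, against 1.97% or less among other genes. Tissues whose sets differ in size are not ranked by these percents.

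The run of 5 lay on chromosome 7, from Solyc07g009060 to Solyc07g009100, and is named after its values were seen. In ID order its genes had 101, 325, 280, 146 and 247 RPKM in root, from 9, 29, 25, 13 and 5 reads. The first had 14 RPKM in ripe fruit, and otherwise the run was listed at 0 in all other libraries. Its first 4 genes had the same inferred coding length of 264 nt. The leading gene Solyc03g020070 lay in a run of 3 on chromosome 3, with 1987 RPKM in root for the gene before it and 1781 RPKM for the gene after it. Solyc01g102900, leading the breaker class, lay in a run of 3 whose genes had 306, 904 and 146 RPKM in root and the same length of 687 nt. Over the 66 adjacent pairs of root-predominant genes, 13 (19.7%) had equal inferred lengths, against 52 of 1969 pairs (2.64%) in which both genes reached 25 RPKM in root but were not both root-predominant. Lengths are less certain in the first group, where more genes have a value in root alone. With both genes listed in at least 2 libraries the counts were 4 of 18 pairs (22.2%) against 51 of 1880 (2.71%), and the first rests on few pairs. Root levels within a pair differed by a median of 2.19-fold, with 31 of 66 pairs within 2-fold. No sequences were at hand, so whether the members of a run are alike in sequence is not known. How reads that match several near-identical genes were counted is not given in the sources used here either. The levels of single members of a run are therefore uncertain.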

How the data were processed

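The authors deposited RPKM values (reads scaled to the length of the gene model and to the reads of the library, with 2 decimals) for 34727 gene IDs in 9 libraries, each built from 454 pyrosequencing of cDNA amplified by PCR. HTSeq is among the tools, per the submitters' processing notes; for its version, the aligner, build, annotation and filters the sources used here give nothing. Column names decided which sample a column holds, and the column for a MoneyMaker berry with the number 10 was taken as ripe fruit by elimination. None of the 41476 genes of the RefSeq table (assembly SLM_r2.1) carried these IDs, so genes have no names, and the planned gene lists and cell type markers were not run.

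Whole reads, library totals and lengths were recovered from the steps of the RPKM values, with lengths taken as multiples of 3 nt. The recovery was rerun on values built from the recovered reads and lengths themselves. That rerun could not show whether a smallest fit was the true one. The rule of size was run on Poisson counts with a common mean over tissues and a raised group in root. These data are less simple, and no result above rests on either run. Where several read numbers fitted, the smallest was kept. Intervals are exact Clopper-Pearson at 95%, converted to ratios where needed, and cover counting error only, since PCR reads are not independent molecules. They do not allow for the choice of genes and of next highest tissues on the same MoneyMaker reads. The interval on the share with a root-predominant neighbour is over genes, not reads. With 1 library per group no test between groups was run. Differences are of log2(RPKM + 5), so folds of low genes are understated. In each comparison or class the text names the 2 genes of largest difference and marks any other as chosen after its values were seen. The comparison and its rules were chosen with earlier results of these data known. Python 3.11.15, NumPy 2.4.6, pandas 2.3.3 and SciPy 1.17.1 were used.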

Additional observations from a re-analysis of the deposited data

How the results depend on the processing

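The 563 root-predominant genes became 271 with a pseudocount of 20 RPKM, 244 at a level of 100 RPKM, 1044 with 1 log2 unit, 331 with 3 log2 units and 283 with zeros raised to 3 reads, an alternative added after seeing the data. They were 586 to 870 with 1 other tissue left out, the highest without stem. Of the 563, 388 remained under upper-quartile scaling and 425 under median-ratio scaling. As deposited root had more predominant genes than leaf (305), but fewer with median-ratio size factors (427 against 586) and upper-quartile scaling (388 against 460).

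The share of root RPKM, 14.3%, was 14.7% with a pseudocount of 1 RPKM, 12.9% with 20 RPKM, 14.5% with no level, 13.1% at 100 RPKM, 20.9% with 1 log2 unit, 9.94% with 3, 11.8% with upper-quartile scaling, 13.3% with median-ratio size factors, 14.4% with equal sums, 9.32% from 300 nt, 13.6% from 10 reads and 13% with the floor of 3 reads. It was 14.5% to 19.5% with a tissue left out.

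The 11 genes lowest in root became 3 with a pseudocount of 20 RPKM, 21 with no level, 1 at 100 RPKM, 28 with 1 log2 unit, 4 with 3, 30 under upper-quartile scaling, 28 under median-ratio scaling and 6 from 10 reads, and 12 to 60 with a tissue left out.

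The 47 genes at the level in LA0722 became 30 with a pseudocount of 20 RPKM, 146 above 0 with no level, 10 at 100 RPKM, 178 with 1 log2 unit, 21 with 3, 26 under upper-quartile scaling and 30 under median-ratio scaling, and 53 to 101 with a tissue left out, the highest without stem. The 111 genes with stem next became 63 with a pseudocount of 20 RPKM, 68 at 100 RPKM, 345 with 1 log2 unit, 49 with 3 and 69 with upper-quartile scaling, and 122 to 145 with a tissue other than stem left out. Without stem this count has no value. The 22.3% with a root-predominant neighbour was 15.9% from 300 nt, 17.9% from 10 reads, 18.8% with the floor of 3 reads and 18.8% to 22.6% with a tissue left out. Alternatives for this share were added after seeing the data. Apart from settings that change the number of genes chosen by their own construction, the cause was not tested.

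No paired analysis was possible because each group holds 1 library. Depth limits the zeros: 3 reads at 1 kb were worth 8.88 RPKM in root, 14.04 RPKM in flower and 13.98 RPKM in breaker fruit.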

Other observations

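Root-predominant genes were spread over all 12 chromosomes. By the chromosome number in the ID, they made up between 3.3% (26 of 787 genes compared, chromosome 11) and 5.38% (48 of 893, chromosome 9). Among IDs with the number 0, which gives no chromosome, they were 11 of 129 (8.53%). No test was run on these shares.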
